A study of Mus musculus with 11 samples.

Results

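The mouse mitochondrial chromosome carries 37 annotated genes, and all 37 were present in a table of read counts for 47131 genes from colorectal organoids. They were taken as every gene listed on the same chromosome (MT) as ND5, without regard to their values. They comprise 13 protein-coding genes, 2 ribosomal RNA genes and 22 tRNA genes, with 28 on the plus strand and 9 on the minus strand (ND6 and 8 tRNA genes). The organoids, epithelial cultures grown in Matrigel, were grown from colons of C57BL/6J females, 6 to 8 weeks of age. They were sequenced as 6 libraries after 48 h with 10 pM NAP and as 5 control libraries, which one label calls untreated and another gives phosphate-buffered saline as vehicle. The labels do not spell out NAP, give every library batch label 1 and record no transgene or mutation. They name biological replicates but not whether each had its own animal or culture, so p-values reflect only how these libraries spread, part of which may be technical.

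Mitochondrial DNA is a small circle present in many copies per cell and transcribed from both strands by its own RNA polymerase. The long transcripts are cut mostly at the tRNAs that lie between the other genes, which frees the messenger, ribosomal and transfer RNAs, and most of the messengers receive short poly(A) tails. The proteins are all subunits of the respiratory chain or the ATP synthase, which colonocytes use to oxidise butyrate and other fuels, and the nuclear genome codes for the remaining subunits and for the proteins that copy, transcribe and translate the mitochondrial genome.

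RNA was enriched for poly(A), so transcripts with short tails or none reach the libraries incompletely, and levels below are levels in poly(A)-enriched RNA. Counts per library totalled 16546263 to 21947414. All 16 epithelial markers passed the filter on low counts and none was called, with summed levels of 14614 to 32694 CPM (counts relative to the scaled library total) in controls and 20292 to 23916 CPM after NAP. Few markers of other cells passed: 1 of 10 for fibroblasts and muscle (summed 2.70 to 33.3 CPM in controls and 7.82 to 52.8 CPM after NAP), 1 of 10 for immune cells (1.38 to 7.05 and 1.06 to 10.8 CPM), 1 of 6 for endothelium (2.47 to 7.09 and 4.91 to 9.64 CPM) and 2 of 8 for enteric neurons and glia (3.96 to 9.53 and 4.07 to 7.07 CPM). None was called, and none of these markers was at 0 in every library. In bulk RNA, fewer cells of a type and less RNA per cell cannot be told apart.

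The mitochondrial genes together held a larger share of the counts in every NAP library than in every control. The share was 2.74, 4.56, 3.40, 3.14 and 4.78% in controls 1 to 5, and 5.53, 8.03, 5.17, 6.21, 8.08 and 6.07% in NAP libraries 1 to 6. Controls 2 and 5 lay close to the lowest NAP library, and NAP libraries 2 and 5 stood highest. The means were 3.73 ± 0.897% (SD, n = 5) and 6.51 ± 1.25% (SD, n = 6), a difference of 2.79 percentage points and a ratio of 1.75, given without a test because it is a sum over chosen genes. On library sizes scaled with TMM, a trimmed mean of log ratios that evens out shifts in composition, the same counts were 2.34, 5.36, 3.23, 2.54 and 5.66% in controls and 5.12, 8.71, 4.85, 6.72, 9.01 and 6.00% after NAP. On that scale the means were 3.83 ± 1.58% and 6.74 ± 1.77%, the groups overlapped, and 4 of 6 NAP libraries exceeded every control.

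**Figure D1:**
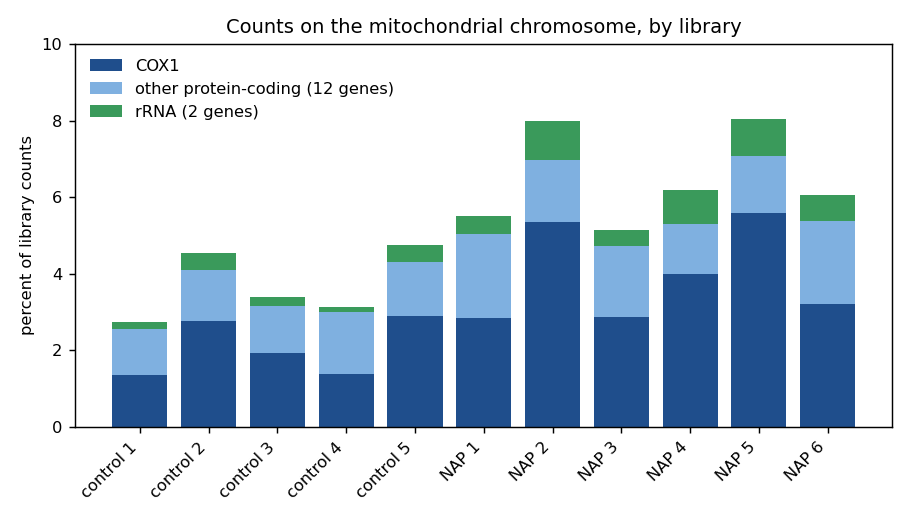
Share of each library's counts (percent) on the mitochondrial chromosome, 1 stacked bar per library for 5 controls and 6 NAP libraries, split into COX1, the other 12 protein-coding genes and the 2 rRNAs. With the tRNAs, too few to draw, the shares run from 2.74 to 4.78% in controls and from 5.17 to 8.08% after NAP, so the groups do not overlap on raw library totals.

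The difference in share was not even across the gene classes. Protein-coding genes held 3.42 ± 0.747% of library counts in controls and 5.75 ± 1.02% after NAP, with every NAP library (4.72 to 7.09%) above every control (2.56 to 4.30%). Ribosomal RNAs held 0.291 ± 0.151% and 0.744 ± 0.252%, a ratio of 2.56, with 5 of 6 NAP libraries above every control. The tRNA genes held 0.0111 ± 0.00437% and 0.0239 ± 0.00685%, again with 5 of 6 NAP libraries above every control. Genes of the plus strand held 3.59% of library counts in controls and 6.33% after NAP without overlap. Genes of the minus strand held 0.134 ± 0.0493% and 0.183 ± 0.0640%, and 1 of 6 NAP libraries exceeded every control. The strand setting of the counting is not given, so these shares go by the annotated strand of each gene, not by the strand of the RNA. COX1 alone accounted for most of the difference in points. Without COX1 the mitochondrial share was 1.66 ± 0.219% (1.38 to 1.88%) in controls and 2.54 ± 0.252% (2.21 to 2.87%) after NAP, a ratio of 1.53, and the groups still did not overlap. All shares by class and strand and without COX1 use raw library totals. On TMM-scaled library sizes the groups overlapped for protein-coding genes, for plus-strand genes and for the sum without COX1.

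Gene by gene, few of these differences passed the test. Of the 37 genes, 26 passed the filter on low counts (12 protein-coding, 2 rRNA and 12 tRNA) and were tested with edgeR's quasi-likelihood test, adjusted over 14840 genes at a threshold of 0.05. It called 3 of the 26, all higher after NAP and all tRNA genes (TrnL1, TrnW and TrnR), while 2.12% of all tested genes were called (1.05% higher and 1.07% lower). No control reached the filter's level for TrnR, so it entered the test only through the NAP libraries, where it is high. TrnL1 and TrnW are without that limit. None of the 12 protein-coding genes or 2 ribosomal RNAs passed in edgeR, whereas DESeq2 called both rRNAs, ND2, ND3 and ND5 among 8 members, all higher, in a test that called 13% of all genes it gave an adjusted p (6.61% higher). At an unadjusted p under 0.05, 16 of the 26 passed, all of them higher (5 protein-coding, 2 rRNA and 9 tRNA), against 10.8% of all tested genes that were higher at that level. Of these 9 tRNAs, 6 had fewer than 5 controls above the filter's 0.564 CPM and so passed more through the NAP libraries, which by itself favours a higher level there, leaving 10 members (5 protein-coding, 2 rRNA and 3 tRNA) without that limit. Every NAP library exceeded every control in TMM-scaled CPM for 4 of the 26 (TrnL1, TrnW, TrnR and ND2), against 2.14% of all tested genes. Here too TrnR counts only through the NAP libraries, unlike TrnL1, TrnW and ND2. In none of the 26 was every NAP library below every control (2.57% of all tested genes). All 26 log2 fold changes were positive, against 44.7% positive and 55.3% negative over all tested genes. The median was 0.44 for the protein-coding genes, 1.31 for the ribosomal RNAs and 1.48 for the tRNAs, beside -0.07 over all tested genes. Once each library's trend with transcript GC content was removed, 21 of the 26 were positive. Their median in that fit was 0.55, beside -0.04 over all tested genes. The members come from shared long transcripts in the same libraries, so counts of members are not counts of independent outcomes. These counts and medians describe genes that passed the filter, which 7 of the 12 tRNAs passed with fewer than 5 controls above it, and they support no statement about all 37.

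**Figure D2:**
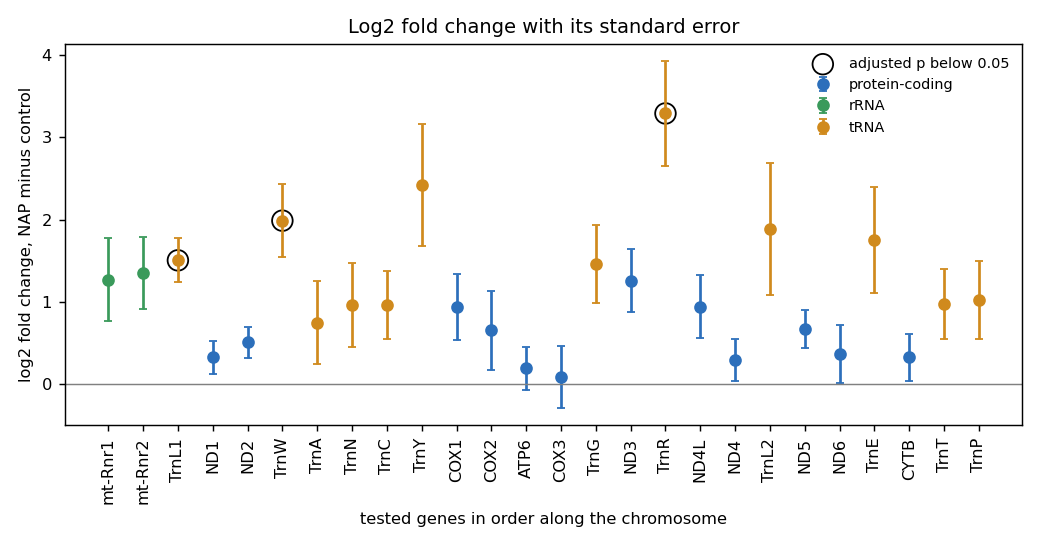
Log2 fold change (NAP minus control, points) with its standard error (bars), and rings where the edgeR adjusted p was below 0.05, for the 26 tested genes in their order along the mitochondrial chromosome, by class. All points lie above 0, where 5 fall below 0 once a GC trend is removed, and the 3 genes called by edgeR (TrnL1, TrnW and TrnR) are tRNAs.

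The libraries also differed in base composition, in the direction of the groups. The rank correlation across 12486 genes between a transcript's GC content and the library's deviation from the gene's mean was 0.155, 0.355, 0.170, 0.0228 and 0.294 in controls 1 to 5. It was 0.120, -0.249, 0.0000720, -0.214, -0.318 and -0.543 in NAP libraries 1 to 6, a description with no test. Mitochondrial genes are poor in GC, with medians of 37.1% for the protein-coding genes, 35.6% for the ribosomal RNAs and 34.1% for the tRNAs against 49.8% over tested genes. With each library's GC trend removed, no mitochondrial gene was called, but only 33 genes were called in all, against 315 without that step. The log2 fold change of COX1 was then 0.54 in place of 0.94. The part of base composition in the mitochondrial differences was not tested further.

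The ribosomal RNAs of the mitochondrial ribosome lie at the start of the chromosome, the small-subunit mt-Rnr1 at positions 70 to 1024 and the large-subunit mt-Rnr2 at positions 1094 to 2675. Levels of mt-Rnr2 were 1084, 3367, 1658, 826 and 3665 CPM in controls 1 to 5 and 2939, 7729, 2933, 6637, 7423 and 4717 CPM in NAP libraries 1 to 6. Controls 2 and 5 were above NAP libraries 1 and 3, so the groups overlapped although all 6 NAP libraries exceeded the control mean. The means were 2120.0 ± 1314 for control and 5396 ± 2175 CPM for NAP (log2 fold change 1.35, SE 0.44, edgeR adjusted p = 0.0970). For mt-Rnr1 they were 986 ± 764 for control and 2379.6 ± 977 CPM for NAP (log2 fold change 1.27, SE 0.51, edgeR adjusted p = 0.153). The 2 rRNAs moved together over libraries, the ratio of mt-Rnr2 to mt-Rnr1 staying between 1.90 and 2.84, while the ratio of mt-Rnr2 to the messenger CYTB ranged from 0.222 in control 4 to 3.07 in NAP library 5.

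Complex I, which takes electrons from NADH, has 7 subunits coded here. ND2 gave 1214, 1741, 1342, 1606 and 1815 CPM in controls and 2318, 2287, 2028, 1826, 2048 and 2649 CPM in NAP libraries. The lowest NAP library lay just above the highest control, and the means were 1544 ± 258 for control and 2193 ± 288 CPM for NAP (log2 fold change 0.51, SE 0.19, edgeR adjusted p = 0.136), which did not pass the test. ND5 had 2259 ± 399 for control and 3582 ± 896 CPM for NAP (log2 fold change 0.67, SE 0.23, edgeR adjusted p = 0.112), and ND1 had 3351 ± 666 for control and 4199 ± 341 CPM for NAP (log2 fold change 0.33, SE 0.20, edgeR adjusted p = 0.344). In both genes controls 2 and 5 were the highest controls. For ND5 they exceeded 1 NAP library and for ND1 they exceeded 2. ND4 had 1709.8 ± 494 for control and 2093 ± 529 CPM for NAP (log2 fold change 0.29, SE 0.25, edgeR adjusted p = 0.510), with groups that overlapped over most of their range.

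The shortest complex I genes are ND3 (348 bases) and ND4L (297 bases). ND3 had 5.54 ± 2.70 for control and 13.2 ± 6.86 CPM for NAP (log2 fold change 1.26, SE 0.38, edgeR adjusted p = 0.0812), with 26.8 CPM in NAP library 1 and 7.54 to 11.97 CPM in the other NAP libraries. ND4L had 3.09 ± 1.16 for control and 5.98 ± 2.90 CPM for NAP (log2 fold change 0.94, SE 0.38, edgeR adjusted p = 0.161). ND6, the one messenger read from the minus strand, ranged from 586 to 2111 CPM over controls and 1021 to 2809 over NAP libraries, with the highest value in NAP library 6. Its means were 1293 ± 671 for control and 1668 ± 604 CPM for NAP (log2 fold change 0.37, SE 0.36, edgeR adjusted p = 0.555). ND6 overlaps ND5 by 14 bases on the opposite strand. The strand setting of the counting is not given, so reads there could belong to either gene. For the same reason, reads counted for the rest of ND6 or for the minus-strand tRNAs could come from RNA of either strand. The ratio of ND6 to ND5 ranged from 0.334 to 0.776 in controls and from 0.315 to 0.745 after NAP.

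CYTB, the cytochrome b of complex III, had 2632, 3125, 2646, 3716 and 3169 CPM in controls and 6314, 2734, 4292, 2518, 2422 and 4683 CPM after NAP. NAP libraries 1, 3 and 6 were above every control, whereas NAP libraries 4 and 5 were below every control. The means were 3058 ± 447 for control and 3827 ± 1550.4 CPM for NAP (log2 fold change 0.32, SE 0.28, edgeR adjusted p = 0.510).

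COX1, the catalytic subunit of cytochrome c oxidase (complex IV), had the most counts of the chromosome's genes and lies at positions 5328 to 6872 on the plus strand. Its levels were 11606, 32409, 18370.0, 11214 and 34305 CPM in controls and 26396, 57933, 26976, 43277, 62354 and 31694 CPM in NAP libraries. Controls 2 and 5 were above NAP libraries 1, 3 and 6, while NAP libraries 2, 4 and 5 were above every control. The means were 21581 ± 11140.3 for control and 41438 ± 15769 CPM for NAP (log2 fold change 0.94, SE 0.40, edgeR adjusted p = 0.179), a difference that did not pass the test. COX1 and CYTB did not keep a constant proportion: their ratio was 4.41, 10.4, 6.94, 3.02 and 10.8 in controls and 4.18, 21.2, 6.28, 17.2, 25.7 and 6.77 in NAP libraries, an 8.53-fold range over all 11. COX1 took 49.6, 60.5, 56.8, 44.2 and 60.6% of mitochondrial counts in controls and 51.5, 66.5, 55.6, 64.4, 69.2 and 52.8% after NAP.

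COX2, the subunit that receives electrons from cytochrome c, had 128 ± 72.1 for control and 201 ± 166 CPM for NAP (log2 fold change 0.65, SE 0.48, edgeR adjusted p = 0.433), with 537 CPM in NAP library 5 and 112 to 164 CPM in the other NAP libraries. COX3, a core subunit beside them, had 55.4 ± 40.2 for control and 58.8 ± 8.09 CPM for NAP (log2 fold change 0.09, SE 0.38, edgeR adjusted p = 0.908), and its sign turned without control 1 (-0.10), control 3 (-0.05) or control 4 (-0.09). ATP6, a subunit of the proton channel of the ATP synthase, had 46.2 ± 15.04 for control and 52.7 ± 16.8 CPM for NAP (log2 fold change 0.19, SE 0.26, edgeR adjusted p = 0.686). ATP8, the other ATP synthase subunit coded here, held 1 to 16 counts per library and did not pass the filter. ATP8 and ATP6 overlap by 43 bases and ND4L and ND4 by 7 bases, so reads in those stretches are uncertain.

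**Figure D3:**
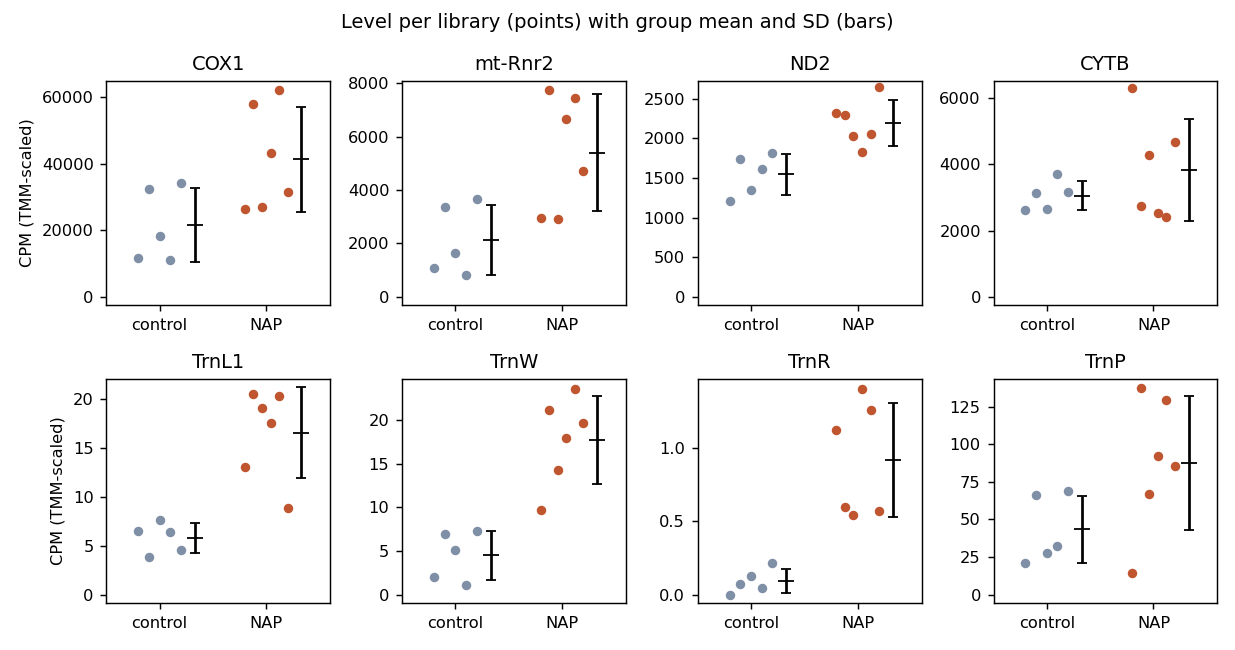
TMM-scaled CPM in each library (points) for 8 mitochondrial genes, with the group mean and SD (bars) for 5 controls and 6 NAP libraries. ND2, TrnL1, TrnW and TrnR do not overlap between the groups, whereas COX1, mt-Rnr2, CYTB and TrnP do.

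Per length, the messengers whose sequence is almost wholly repeated in the nuclear genome stood below most of the others. The mean deposited FPKM over the 11 libraries was 20352 for COX1, 3856 for ND1, 2938 for CYTB, 2794 for ND6, 1769 for ND2, 1583 for ND5 and 1347 for ND4. For the repeated messengers it was 238 for COX2, 70.7 for ATP6, 70.7 for COX3, 27.04 for ND3 and 15.2 for ND4L. Each gene was cut into all its windows of 75 bases, and each window was looked for in the annotated nuclear transcripts of GENCODE M21 (GRCm38). For these 5 genes, 97.8% (ND3) to 99.9% (COX3) of windows were found there, with a pseudogene of chromosome 1 among the matches of each. The share was 61.5% for ND4, 39.8% for COX1, 5.71% for ND2, 1.66% for ND5 and 0 for ND1, CYTB, ND6 and both rRNAs. ATP8, which lies between COX2 and ATP6, had no window in an annotated nuclear transcript and a mean FPKM of 1.48. Its last 43 bases are also the first bases of ATP6, a stretch shorter than the 75-base window. Nuclear sequence outside annotated transcripts was not searched, so a copy of ATP8 there would not have been found. The sources used here do not say how reads with several matching places were counted, and the part of these copies in the levels was not tested.

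COX3 is the clearest case, since bases 1 to 783 of its 784 are also in the pseudogene Gm28437. Its first 60 bases (chrM:8607-8666, plus strand, GRCm38, start codon in capitals) are printed because they are the same in that nuclear copy, so that a read from them has more than one place to align:

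COX3: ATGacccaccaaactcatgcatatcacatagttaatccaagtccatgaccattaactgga

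In the deposited table an unnamed gene row on chromosome 1 (24650296 to 24655271, GRCm39) lies before Lmbrd1, as the 7 chromosome 1 pseudogenes with shared windows do in GRCm38. Whether it is the same copy was not tested. It held 2511 to 9839 counts in controls and 4105 to 9411 after NAP, or 321 ± 246 and 344 ± 79.9 CPM (log2 fold change 0.10, SE 0.41, edgeR adjusted p = 0.906). Without the members of which at least 50% of windows were shared, the difference in mitochondrial share was 2.74 points, beside 2.79 with them. Those members held few counts: ND4, the most counted, had means of 0.170% of library counts in controls and 0.209% after NAP. COX1, with 39.8% of windows shared and means of 2.07% and 3.98%, stayed in. The part of the copies in the share was therefore not tested.

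**Figure D4:**
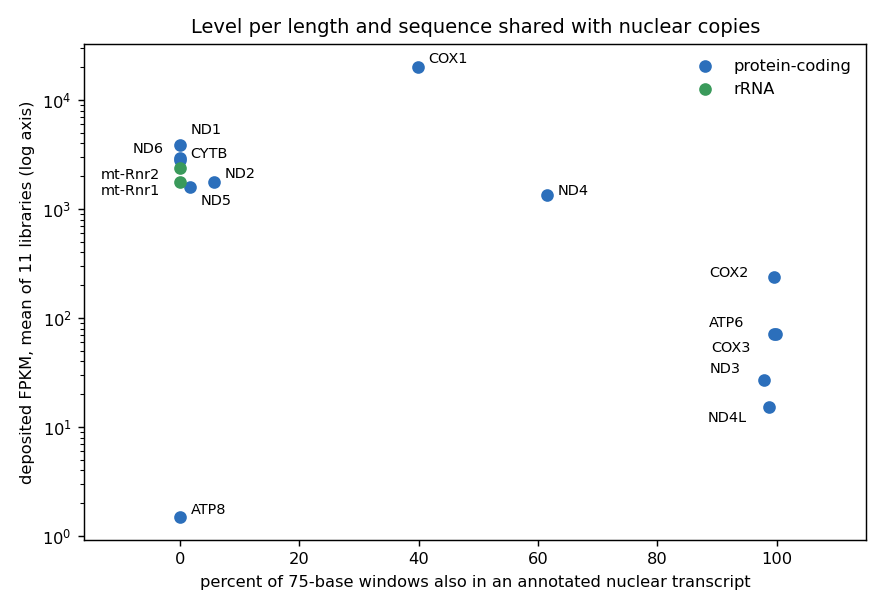
Mean deposited FPKM over 11 libraries (log axis) against the percent of 75-base windows also found in an annotated nuclear transcript, for 13 protein-coding genes and 2 rRNAs. The 5 genes with at least 97.8% of windows shared (COX2, ATP6, COX3, ND3 and ND4L) lie between 15.2 and 238 FPKM. ATP8, with no window in an annotated nuclear transcript, lies lowest at 1.48 FPKM, and other nuclear sequence was not searched.

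The 3 called genes were tRNAs, small adaptors that carry amino acids to the ribosome. Their sequences are printed because reads were counted over such short intervals, with the anticodon in capitals (GENCODE M21, GRCm38, plus strand):

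TrnL1: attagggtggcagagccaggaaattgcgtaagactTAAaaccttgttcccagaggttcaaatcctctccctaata
TrnW: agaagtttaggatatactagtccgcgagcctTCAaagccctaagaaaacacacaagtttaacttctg
TrnR: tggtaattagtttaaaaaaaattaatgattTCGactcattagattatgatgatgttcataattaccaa

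TrnL1, the leucine tRNA that reads UUA and UUG codons, fills positions 2676 to 2750 and abuts mt-Rnr2 on one side and ND1 on the other with no base between. It held 142, 56, 176, 140 and 64 counts in controls and 234, 342, 352, 288, 323 and 189 counts in NAP libraries. All 6 NAP libraries were above all controls, and the means were 5.81 ± 1.52 for control and 16.6 ± 4.63 CPM for NAP (log2 fold change 1.50, SE 0.27, edgeR adjusted p = 0.0343). TrnW, the tryptophan tRNA at positions 4950 to 5016, overlaps ND2 by 2 bases. It held 45, 99, 118, 24 and 102 counts in controls and 173, 354, 263, 296, 376 and 417 counts after NAP, with controls 1 and 4 lowest. The means were 4.50 ± 2.81 for control and 17.7 ± 5.05 CPM for NAP (log2 fold change 1.99, SE 0.44, edgeR adjusted p = 0.0442), and the groups did not overlap.

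TrnR, the arginine tRNA at positions 9808 to 9875, held 0, 1, 3, 1 and 3 counts in controls and 20, 10, 10, 23, 20 and 12 counts after NAP (log2 fold change 3.29, SE 0.63, edgeR adjusted p = 0.0382). No control and 5 of 6 NAP libraries reached the 0.564 CPM of the filter, so TrnR entered the test only through the NAP libraries and its fold change rests on 8 control counts in all. Reads longer than these tRNAs would also cover their neighbours, and how the authors assigned such reads is not given, so tRNA counts cannot be told apart from counts of uncut or neighbouring transcripts. The 3 calls were sensitive to single libraries. TrnL1 and TrnW lost theirs without control 1, 2 or 5 or NAP library 2, 4 or 5, TrnW also without control 3 or NAP library 6, and TrnR without control 1, 2, 3 or 5 or NAP library 2. Without any other NAP library TrnR missed the filter.

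Of the other 9 tested tRNAs, none was called. The most counted were TrnP (proline), TrnN (asparagine) and TrnC (cysteine), all on the minus strand. TrnP, the last gene of the chromosome (positions 15356 to 15422), had 43.3 ± 22.6 for control and 87.6 ± 44.8 CPM for NAP (log2 fold change 1.02, SE 0.47, edgeR adjusted p = 0.215). NAP library 1 held 14.7 CPM of TrnP, below every control, and NAP library 2 held 137 CPM, the highest value. TrnN and TrnC, which flank the 32 bases without a gene where replication of the light strand begins, had 31.5 ± 23.1 for control and 61.3 ± 22.4 CPM for NAP (log2 fold change 0.96, SE 0.51, edgeR adjusted p = 0.271) and 27.02 ± 16.99 for control and 52.5 ± 16.2 CPM for NAP (log2 fold change 0.96, SE 0.42, edgeR adjusted p = 0.186). The remaining 6 held fewer counts, with log2 fold changes of 2.42 for TrnY (tyrosine; edgeR adjusted p = 0.0840), 1.46 for TrnG (glycine; 0.0963), 1.75 for TrnE (glutamate; 0.127), 1.88 for TrnL2 (leucine; 0.179), 0.97 for TrnT (threonine; 0.184) and 0.74 for TrnA (alanine; 0.393). The other 10 tRNAs did not pass the filter, and none of them held more than 39 counts in any library. TrnF, the first gene of the chromosome and named here after its values were seen, had 0 counts in all 11 libraries, which allows up to 0.137 to 0.181 CPM per library (3 counts over the total, counting error only).

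Within the mitochondrial counts, the rRNA share varied from library to library in both groups. It was 6.42, 9.59, 6.98, 4.40 and 9.75% in controls and 8.70, 12.8, 8.38, 14.3, 11.96 and 11.1% in NAP libraries. Controls 2 and 5 were above NAP libraries 1 and 3, and the means were 7.43 ± 2.26% and 11.2 ± 2.31%. The protein-coding share was 92.3% in controls and 88.4% after NAP, and the tRNA share 0.290% and 0.365%. Genes of the minus strand made up 3.50% and 2.89%.

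**Figure D5:**
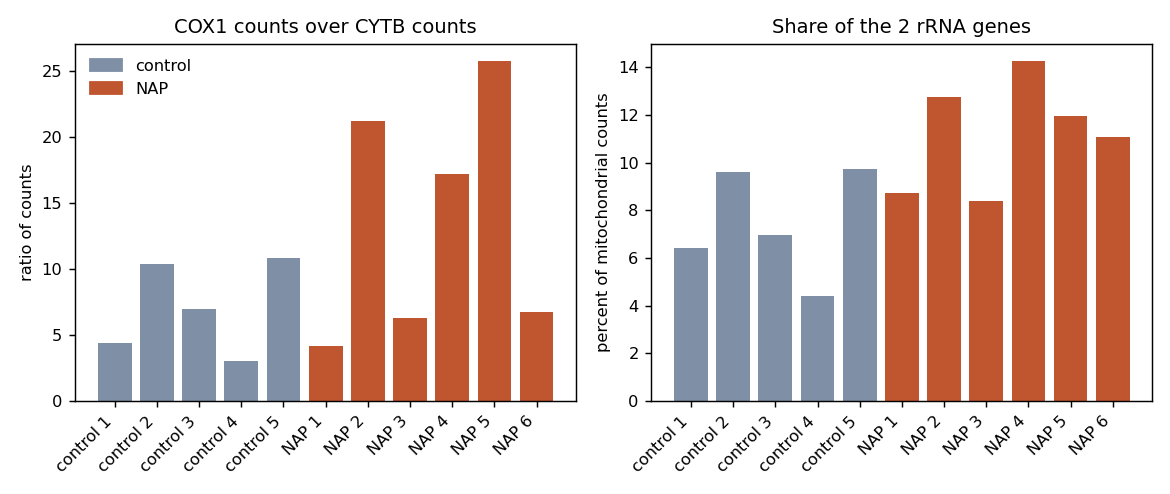
Ratio of COX1 counts to CYTB counts (left) and the 2 rRNA genes as a percent of mitochondrial counts (right), 1 bar per library for 5 controls and 6 NAP libraries. The ratio spans 3.02 to 25.7 and the rRNA share 4.40 to 14.3%, and the groups overlap in both.

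Among nuclear genes that act on mitochondrial DNA and its RNA, 78 were tested and 3 were called, 2 higher and 1 lower, with a median log2 fold change of -0.20 beside -0.07 over all tested genes. That is 3.85% of the list, near the 2.12% called over all tested genes, so the count is no result about the list, and the 3 genes are given as single genes. Gtpbp3, which modifies the wobble uridine of several mitochondrial tRNAs, fell 2.08-fold, from 23.0 ± 3.97 to 11.03 ± 3.33 CPM (log2 fold change -1.06, SE 0.22, edgeR adjusted p = 0.0417). Nsun3, which methylates the mitochondrial methionine tRNA, rose 1.90-fold, from 10.03 ± 2.37 to 19.1 ± 3.26 CPM (log2 fold change 0.93, SE 0.21, edgeR adjusted p = 0.0442). Rrm2b, a ribonucleotide reductase subunit that supplies precursors for mitochondrial DNA, rose 2.17-fold, from 6.42 ± 2.16 to 14.0 ± 3.82 CPM (log2 fold change 1.12, SE 0.27, edgeR adjusted p = 0.0490). All 3 calls were lost without control 1, 2 or 5 or NAP library 2, 4 or 5, those of Gtpbp3 and Rrm2b also without NAP library 6, that of Nsun3 without control 3 and that of Rrm2b without control 4. None of 10 transcription genes was called. Polrmt, the mitochondrial RNA polymerase, had 35.3 ± 10.1 for control and 18.5 ± 6.04 CPM for NAP (log2 fold change -0.93, edgeR adjusted p = 0.0599), and Mterf2, of the family of transcription termination factors, had 0.98 (0.136). Among 18 replication genes, Atad3a, an ATPase tied to mitochondrial nucleoids, had -0.43 (0.0834) beside Rrm2b. Of 18 genes of RNA stability, none was called; the helicase Supv3l1, which helps degrade mitochondrial RNA, had -0.52 (0.0928) and Tbrg4, which stabilises mitochondrial messengers, -0.49 (0.102). Nor was any of 13 regulators called, where the transcription factor Tfeb had -0.80 (0.0598) and Gabpa, a transcription factor of respiratory genes, 0.55 (0.0855).

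The nuclear partners of the mitochondrial subunits mostly had the opposite sign. Of 77 tested nuclear subunit genes of complexes I to V, none was called by edgeR, and 14 (18.2%) had an unadjusted p under 0.05, below the 23.6% over all tested genes. DESeq2 called 1 (Uqcrc1), where it called 13% of all genes. The log2 fold change was negative for 70, with a median of -0.37, against 55.3% of all tested genes and a median of -0.07. In 56 of the 77 every NAP library lay within the range of the controls, against 26.6% of all tested genes. By complex, 34 of 37 were negative in complex I (Ndufs8, -0.78, edgeR adjusted p = 0.127, and Ndufa8, -0.86, 0.140), 3 of 4 in complex II (Sdhb, -0.45, 0.526, and Sdhd, -0.22, 0.558) and 8 of 9 in complex III (Uqcrc1, -0.88, 0.107, and Uqcr10, -0.82, 0.144). In complex IV 12 of 12 were negative (Ndufa4, -0.50, 0.200, and Cox5b, -0.83, 0.268), and in the ATP synthase 13 of 15 (Atp5d, -0.91, 0.154, and Atp5g1, -0.75, 0.180). The medians were -0.35, -0.14, -0.78, -0.42 and -0.24 for complexes I to V. Without controls 1 and 4 edgeR called 34 of the 77, all lower (5.46% of all genes were called lower there). Without controls 2 and 5 it called 0 (2.61% of all genes were called lower there). Both of these fits were chosen after the data were seen. With none of the 77 called by edgeR on all 11 libraries, the negative signs were not shown as a difference between the groups.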

How the data were processed

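Poly(A)-enriched RNA of 11 libraries was measured. The authors deposited raw counts (whole numbers) for each gene, and FPKM in a separate deposited table. Per the submitters' processing notes, the tools were Trimmomatic 0.39, HISAT2 2.2.1 and featureCounts of Subread 2.0.8, with GRCm39. Strand setting and multi-mapping rules: not given in the sources used here. Groups and replicate numbers came from the titles.

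Counts were filtered with filterByExpr, scaled with TMM and tested in edgeR 4.0.16 under R 4.3.3 (robust quasi-likelihood fit) across 14840 genes, NAP minus control, with no covariate and Benjamini-Hochberg adjustment at 0.05. The standard error is the log2 fold change over the square root of the test statistic. All values per gene are TMM-scaled CPM with mean ± SD (n = 5 controls, n = 6 NAP libraries). The number of counts limits the precision of low genes. GC content and sequences came from GENCODE M21 transcripts (GRCm38), GC for 84.1% of tested genes, and in that build all 37 members keep the start and end of the deposited table. The GC trend was a lowess fit per library (span 0.3). Window sharing used runs of 75 bases on either strand.

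All 37 members are accounted for. Protein-coding and rRNA members and tRNAs passing the filter are named, and in each nuclear list the called genes and the 2 with the smallest p. The members and lists were chosen with earlier results of these data known. Alternatives tried were further scalings and filters, DESeq2 1.42.0, limma 3.58.1 on voom and on log2(FPKM + 1), a replicate block, GC trends and left-out libraries. Leaving out controls 1 and 4, or 2 and 5, together, and the TMM-scaled share, were added after seeing the data. On simulated data the edgeR procedure called 20 of 100 genes changed by 1 log2 unit, 71 of 100 changed by 2, and 4 unchanged genes. A gene that did not pass the test is therefore not shown to be unchanged.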

Additional observations from a re-analysis of the deposited data

Results flagged for a closer look

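Of 64 checks of a group's values, 5 had 1 library further from the rest than Dixon's 95% limit allows, where chance gives about 1 in 20. COX2 had 537 CPM in NAP library 5 against 112 to 164 CPM in the other NAP libraries. ND3 had 26.8 CPM in NAP library 1 against 7.54 to 11.97 CPM in the others, and TrnL2 had 6.26 CPM in that same library against 0.283 to 1.02 CPM. TrnG had 0.978 CPM in control 2 against 0.286 to 0.369 CPM in the other controls. Minus-strand genes held 0.306% of counts in NAP library 6 against 0.118 to 0.178% in the other NAP libraries.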

How the results depend on the processing

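The number of mitochondrial genes called, 3 in all, was 1 with library totals only, 8 with DESeq2, 0 with the GC trend removed and 10 without controls 2 and 5. Over all genes 315 were called, against 41 with library totals only, 89 with no filter, 1656 with DESeq2, 33 with the GC trend removed, 1315 without controls 1 and 4 and 824 without controls 2 and 5. Of nuclear genes of mitochondrial DNA expression 3 were called, against 0 with library totals only, with no filter or with the GC trend removed, 12 with DESeq2, 6 without controls 1 and 4 and 7 without controls 2 and 5. For nuclear subunits 0 became 1 with DESeq2 and 34 without controls 1 and 4, and stayed 0 without controls 2 and 5. With the replicate block, alone or with the GC trend removed, 0 genes were called in each of these sets. Same-numbered libraries did not pair throughout (correlations of -0.30 to 0.42 over 5 pairs, 3 above 0.1, and 2 of 5 controls closest to their own number). Controls 1 and 4 correlated with NAP libraries 1 and 3 (0.27 to 0.42), and controls 2 and 5 with NAP libraries 2, 4 and 5 (0.23 to 0.37). Across these sets correlations were -0.42 to -0.24, and with control 3 or NAP library 6 they were -0.28 to 0.17. What the sets share was not tested. Leaving out 1 library gave 0 to 3 mitochondrial genes, 0 to 814 genes in all, 0 to 7 of mitochondrial DNA expression and 0 to 0 subunits; no mitochondrial gene was called without control 1, 2 or 5 or NAP library 2, 4 or 5. The share difference of 2.79 points was 0.880 without COX1, 5.395 on FPKM, 2.88 with the replicate block and 2.48 to 3.06 without 1 library.

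Log2 fold changes turned negative with the GC trend removed for ND1 (-0.077), ATP6 (-0.24), COX3 (-0.35), ND4 (-0.15) and ND6 (-0.22), and with the replicate block as well for ATP6 (-0.19), ND4 (-0.13), ND6 (-0.082) and CYTB (-0.13). COX3 was -0.10, -0.05 and -0.09 without control 1, 3 and 4, and -0.34 without controls 1 and 4, where ND6 was -0.0041, and without 1 library COX3 spanned -0.10 to 0.52. The causes were not tested. Low counts limit the tRNAs and ATP8.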
